A study of Capra hircus with 14 samples.

Results

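The last sampled step of a fibroblast-to-epithelium induction, from day 6 to day 8, was examined over all genes. It rests on 4 of the study's 14 libraries, 2 from day 8 and 2 from day 6, chosen by the day in their titles. The libraries were made from goat (Capra hircus) cells of wild-type genotype. On day 8, goat fibroblasts (GEF) that had spent 8 days in R induction medium had formed their first colonies, and the submitters call these CiMECs-P0, with the cell type "induced mammary epithelial cells". On day 6, the same kind of cells had spent 6 days in that medium, and they carry the same cell type label. Both groups grew on plates coated with Matrigel, a basement membrane extract, with fresh medium at 2-day intervals. The composition of the medium is not stated in those labels. The other libraries, 2 each from days 0, 1, 2, 3 and 4, were used to estimate the spread between libraries and to show earlier levels. Cells kept to day 6 or day 8 without the medium were not analysed here, and effects of the medium and of days in culture cannot be told apart. Whether the libraries of 1 day came from separate cultures is not stated in the labels. The spread behind each p-value is therefore that between libraries, and it may be technical.

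Stratified epithelia such as the epidermis are built from a basal layer of dividing cells that carry keratins 5 and 14 and the transcription factor TP63. Cells that leave this layer switch to keratins 1 and 10, strengthen their desmosomes and lay down envelope proteins such as involucrin, and in the outermost layers proteases and lipid-processing enzymes finish the barrier. In the mammary gland, by contrast, the milk-secreting luminal cells carry the simple keratins 8, 18 and 19, and the basal, myoepithelial cells carry keratins 5 and 14 together with contractile proteins.

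The libraries held 21585464 and 23883209 estimated counts at day 8 and 20612292 and 21070693 at day 6, and 15712 of 30277 genes had enough counts to be tested. Levels are in CPM, computed with library sizes after TMM scaling. Pairs of values are replicate 1 and then replicate 2 of a day, and values after ± beside CPM are the SD over the 2 libraries. A gene is said to have risen, fallen or changed where the edgeR quasi-likelihood test gave a Benjamini-Hochberg adjusted p under 0.05. Libraries of the same day agreed closely in both pairs, with a Spearman correlation over genes of 0.997. Gene length moved with the day. The tested genes were ordered by length and put into 10 equal bins. In the bin of the shortest genes, of 69 to 993 bases, the median log2 fold change was 0.22, and in that of the longest, of 6226 to 28248 bases, it was -0.14. Set against each gene's mean over the 14 libraries, the shortest genes stood at 0.05 and 0.03 (median, log2) in the day 8 libraries and at -0.20 and -0.10 in the day 6 libraries. The part of this trend in the results was not tested gene by gene, but an added fit with each library's length trend removed gave medians of -0.02 and 0.09 in those bins. For the lists below, the split of rises and falls is also given with this length adjustment, or with library totals alone, where either moved the share of rises among the calls by over 10 percentage points.

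**Figure D1:**
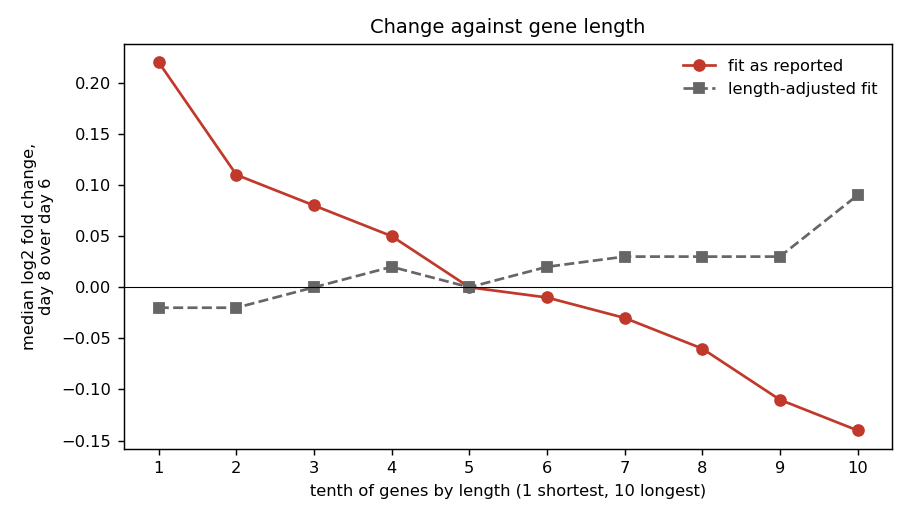
Median log2 fold change of day 8 over day 6 (vertical axis) in 10 bins of the tested genes by length, from shortest to longest (horizontal axis). Red points are the fit as reported, which runs between 0.22 and -0.14, and grey squares are the length-adjusted fit, at -0.02 and 0.09 in the same bins.

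Between day 6 and day 8, 4021 genes (25.6% of those tested) rose and 3650 (23.2%) fell, while 8041 did not pass the test. Counts of rises and falls on the lists below are to be read against these shares. Most of these changes were small. The median absolute log2 change of the genes that passed was 0.45, and 3069 of the rises and 1839 of the falls were under 1.5-fold. Changes of at least 2-fold were found in 1158 genes (7.37%), of which 374 rose (2.38%) and 784 fell (4.99%). Changes of at least 4-fold were found in 124 genes that rose and 113 that fell. In 11805 genes (75.1%) the 2 day 8 libraries lay on 1 side of both day 6 libraries, so the lack of overlap alone sets few genes apart. The balance depended on the scaling: with library totals alone, which moved the median of all genes by -0.11 (log2), 2600 genes rose and 4853 fell. With the length adjustment, 4326 rose and 3467 fell, and 1120 of the 1158 genes that changed at least 2-fold kept their call and direction. The cells are bulk samples, so fewer cells of a type and less RNA per cell cannot be told apart in any of the values below.

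The largest rises were led by genes of the outer epidermis. Of the 15 genes with the largest rises at 5 CPM or more, 10 are on the list of stratified and cornifying epithelium. KRT1, the type II keratin that replaces KRT5 when cells leave the basal layer, stood at 134 and 131 CPM at day 8, against 12.3 and 11.5 CPM at day 6 (log2 fold change 3.47 ± 0.095 (SE), adjusted p = 4.77e-17). Its type I partner KRT10 stood at 179 and 160.1 CPM at day 8, against 28.3 and 32.5 CPM at day 6 (log2 fold change 2.48 ± 0.086 (SE), adjusted p = 2.57e-16). In both genes the lower day 8 library was several-fold above the higher day 6 library. Lack of overlap between the days was itself a condition for the largest rises and falls named. KRT2, a keratin of the upper epidermal layers, rose by 2.58 (log2), to 11.2 ± 1.51 CPM at day 8, against 1.86 ± 0.0225 CPM at day 6 (SD, n = 2 each). Proteases of the outermost layers rose by more, though they were near the detection limit at day 6. The kallikrein KLK5, which helps to shed dead cells from the skin surface, stood at 6.32 and 5.64 CPM at day 8, against 0.229 and 0.18 CPM at day 6 (log2 fold change 4.83 ± 0.50 (SE), adjusted p = 4.48e-08). KLK7, which acts with it, stood at 11.7 and 10.8 CPM at day 8, against 0.504 and 0.901 CPM at day 6 (log2 fold change 3.99). ASPRV1, an aspartic protease that processes filaggrin, stood at 15.2 and 14.4 CPM at day 8, against 0.642 and 0.451 CPM at day 6 (log2 fold change 4.75), and again no day 8 library came near a day 6 library. CASP14, the caspase of cornification, stood at 8.45 and 10.5 CPM at day 8, against 0.321 and 0.586 CPM at day 6 (log2 fold change 4.36 ± 0.38 (SE), adjusted p = 6.79e-09). CST6, a cystatin that restrains proteases of the cornifying layers, rose by 3.03 (log2), to 37.8 ± 0.131 CPM at day 8, against 4.63 ± 0.394 CPM at day 6.

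Of the remaining 7, 3 are genes of the envelope and of differentiating keratinocytes. The transglutaminase TGM3, which crosslinks envelope proteins, stood at 39.4 and 38.7 CPM at day 8, against 4.68 and 6.76 CPM at day 6 (log2 fold change 2.77 ± 0.15 (SE), adjusted p = 1.08e-12). KRTDAP, a small secreted protein of differentiating keratinocytes, stood at 38.1 and 43.3 CPM at day 8, against 4.26 and 3.38 CPM at day 6 (log2 fold change 3.41). CNFN, an envelope component, rose by 2.83 (log2), to 10.2 ± 1.29 CPM at day 8, against 1.43 ± 0.465 CPM at day 6. The other 4 of the 15 were FFAR4, a receptor for long-chain fatty acids, DAPK2, a calcium-dependent kinase, ADAMTSL1, a secreted matrix glycoprotein, and KRT23, a keratin of simple epithelia. FFAR4 stood at 42.7 and 43.0 CPM at day 8, against 5.68 and 4.87 CPM at day 6 (log2 fold change 3.02 ± 0.13 (SE), adjusted p = 1.62e-14). DAPK2 rose by 2.65, ADAMTSL1 by 3.68 and KRT23 by 2.81 on the log2 scale. All 15 had their highest day mean of the series at day 8, which the way they were chosen fixes in part. Over all 15712 genes tested it was at day 8 in 2825.

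The largest falls were of another kind. KRT18, a keratin of simple epithelium, stood at 1.43 and 1.72 CPM at day 8, against 9.21 and 9.24 CPM at day 6 (log2 fold change -2.54 ± 0.15 (SE), adjusted p = 2.41e-12). SPP1, or osteopontin, a secreted phosphoprotein of bone, milk and remodelling tissue, stood at 13.6 and 14.3 CPM at day 8, against 77.4 and 76.7 CPM at day 6 (log2 fold change -2.47 ± 0.080 (SE), adjusted p = 8.3e-17). In both genes the day 8 libraries were several-fold below the day 6 libraries. IGF1, a growth factor made by mesenchymal cells, stood at 8.79 and 8.70 CPM at day 8, against 35.7 and 32.2 CPM at day 6 (log2 fold change -1.96). OLFML2A, an extracellular matrix glycoprotein, stood at 7.83 and 8.78 CPM at day 8, against 30.3 and 29.0 CPM at day 6 (log2 fold change -1.83). ACTA1, skeletal muscle actin, fell by 2.13 (log2), to 1.17 ± 0.496 CPM at day 8, against 5.09 ± 0.704 CPM at day 6. CCL17, a chemokine that draws T cells, stood at 1.04 and 1.03 CPM at day 8, against 4.13 and 7.34 CPM at day 6 (log2 fold change -2.46). Its day 6 libraries lay apart from each other, but both were above the day 8 libraries.

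Long genes were frequent among these falls. The 15 largest falls had a median length of 6010 bases, against 1742 bases for the 15 largest rises and 2688 over all genes tested, and 8 of the 15 were over 5 kb. NBEAL1, a BEACH-domain protein, stood at 5.65 and 5.21 CPM at day 8, against 28.2 and 25.7 CPM at day 6 (log2 fold change -2.31 ± 0.17 (SE), adjusted p = 1.97e-10). REV3L, the catalytic subunit of the translesion DNA polymerase zeta, stood at 32.6 and 34.4 CPM at day 8, against 126 and 110.0 CPM at day 6. VPS13C, a lipid transfer protein, averaged 27.6 ± 4.79 CPM at day 8, against 101 ± 9.10 CPM at day 6. In all 3 genes the day 6 libraries were several-fold above the day 8 libraries. ANKRD12, a nuclear ankyrin-repeat protein, fell by 1.88, the ciliary genes DNAH7 and CFAP54 by 2.12 and 1.87, KIAA1107 by 1.86, the actin-bundling gene PLS1 by 1.94 and the potassium channel subunit gene KCNMB3 by 1.84 (log2). All 15 falls and all 15 rises kept their call and direction with the length adjustment. The highest day mean of the series was at day 6 in 7 of the 15 falls, which the way they were chosen favours. Over all 15712 genes tested it was at day 6 in 1618.

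**Figure D2:**
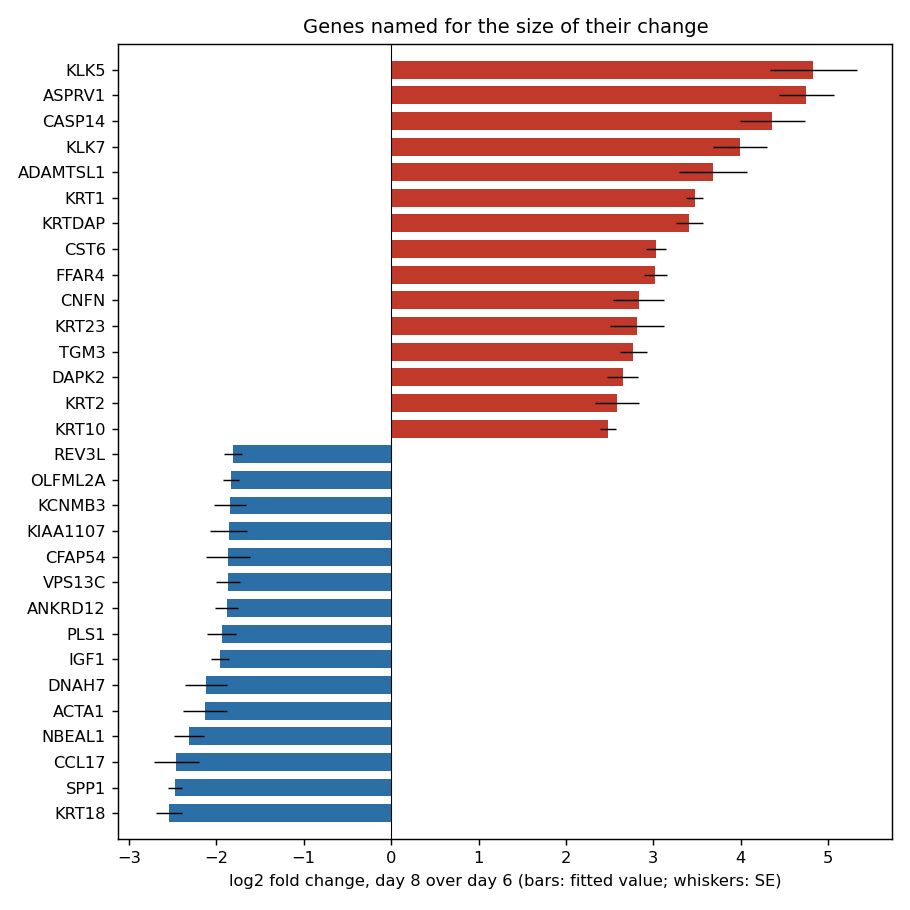
Fitted log2 fold change of day 8 over day 6 (horizontal axis, whiskers are SE) for the 15 genes with the largest rises, in red, and the 15 with the largest falls, in blue. The rises run up to 4.83 in KLK5 and the falls down to -2.54 in KRT18, and the smallest change drawn is that of REV3L, at -1.81.

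All 14 tested genes of the basal epithelium list rose, with a median log2 fold change of 0.86 (all genes tested, 0.00), and the count was the same with the length adjustment. KRT5, the type II keratin of basal cells, stood at 25073 and 25664 CPM at day 8, against 13391 and 13976 CPM at day 6 (log2 fold change 0.89 ± 0.045 (SE), adjusted p = 1.86e-13). Its partner KRT14 stood at 14384 and 14659 CPM at day 8, against 6422 and 6869 CPM at day 6 (log2 fold change 1.13 ± 0.048 (SE), adjusted p = 1.03e-14). KRT6A, a keratin of hyperproliferative and healing epidermis, stood at 5919 and 5895 CPM at day 8, against 2246 and 2330 CPM at day 6 (log2 fold change 1.37 ± 0.049 (SE), adjusted p = 4.26e-16). In these genes the day 8 libraries differed by a few percent, and both lay far above the day 6 libraries. The deposited counts may divide reads among near-identical keratin genes, so the split between KRT5 and KRT6A, or KRT14 and keratin 17, is uncertain. The 61 keratin genes together took 5.80% and 5.87% of the counts at day 8, against 3.18% and 3.32% at day 6. KRT15, a keratin of basal cells with progenitor capacity, rose by less, with 1991 and 2016 CPM at day 8, against 1407 and 1481 CPM at day 6 (log2 fold change 0.47). TP63, the master regulator of basal epithelium, stood at 386 and 378 CPM at day 8, against 204 and 197 CPM at day 6 (log2 fold change 0.93 ± 0.051 (SE), adjusted p = 7.54e-13). BCL11B, a transcription factor of epidermal progenitors in the mouse, stood at 62.5 and 57.2 CPM at day 8, against 28.8 and 27.8 CPM at day 6 (log2 fold change 1.08). CDH3, the cadherin of basal cells, stood at 240.0 and 248 CPM at day 8, against 114 and 114 CPM at day 6 (log2 fold change 1.09).

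Hemidesmosomes anchor basal cells to the laminin of the basement membrane. Of 11 tested genes of this list of integrins, plakins and laminin chains, 5 rose and none fell, with a median of 0.09, which turned to -0.03 with library totals alone, where 5 rose and 2 fell. These genes are long, with a median of 5509 bases, and with the length adjustment 9 rose and the median was 0.42. ITGA6, the integrin alpha subunit of the structure, stood at 1459 and 1462 CPM at day 8, against 959.5 and 882 CPM at day 6 (log2 fold change 0.67 ± 0.061 (SE), adjusted p = 4.07e-09). COL17A1, its transmembrane collagen, stood at 2924 and 2866 CPM at day 8, against 1907 and 1854 CPM at day 6 (log2 fold change 0.62 ± 0.046 (SE), adjusted p = 1.54e-10). ITGB4, the integrin partner, and LAMA3, a laminin chain, rose by 0.36 and 0.27 (log2).

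**Figure D3:**
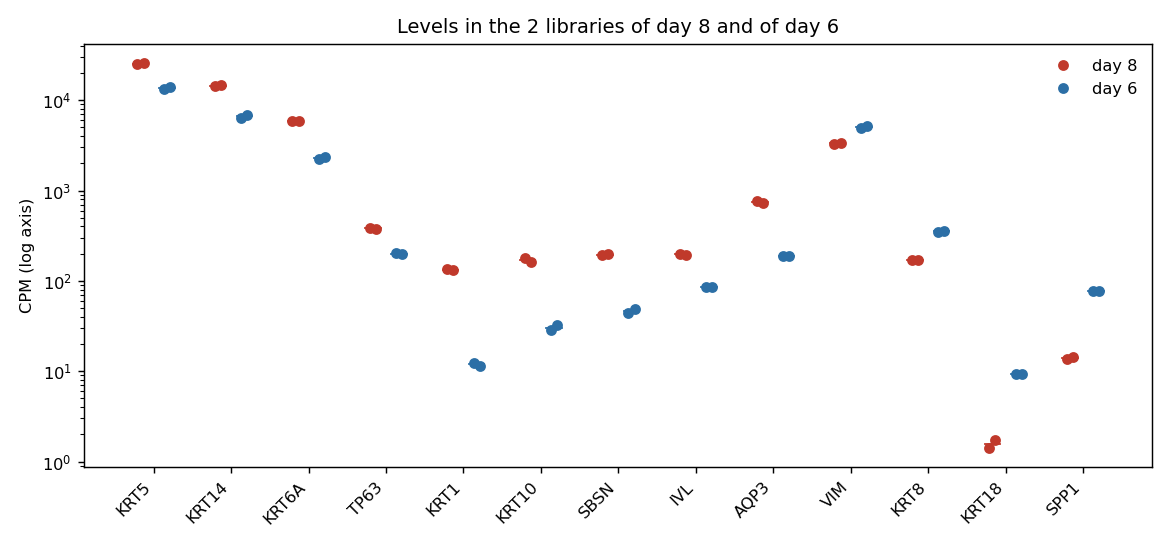
CPM on a log axis for 13 genes (horizontal axis), with the 2 libraries of day 8 in red, left, and of day 6 in blue, right, as points and their mean as a short line. Basal and stratified genes and AQP3 lie higher at day 8, as in KRT1 with 134 and 131 CPM at day 8, against 12.3 and 11.5 CPM at day 6. VIM, KRT8, KRT18 and SPP1 lie lower. The days do not overlap in any of the 13. This holds for 75.1% of all genes tested and was a condition for genes named by the size of their change.

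The list of stratified and cornifying epithelium moved by more than any other list of at least 5 tested genes in its median. Of its 46 genes in the table, 41 were tested, of which 34 rose and 1 fell, with a median log2 fold change of 2.36, and 29 of the 34 rose at least 2-fold (2.38% over all genes). The summed level of the list was 2865 and 2827 CPM at day 8, against 1301 and 1337 CPM at day 6. SBSN, the suprabasal secreted protein suprabasin, stood at 193 and 196 CPM at day 8, against 44.5 and 49.3 CPM at day 6 (log2 fold change 2.05 ± 0.068 (SE), adjusted p = 1.13e-16). IVL, involucrin, the first scaffold of the envelope, stood at 197 and 196 CPM at day 8, against 84.9 and 85.4 CPM at day 6 (log2 fold change 1.21 ± 0.061 (SE), adjusted p = 1.86e-13). Both genes were thus well above the day 6 libraries in each day 8 library. Late envelope genes were near 0 at day 6. SPRR4, a small proline-rich envelope protein, had 80 counts over the 2 libraries of day 8 and 0 over those of day 6. It was at least 24.4-fold higher with 3 counts in the pair of day 6 libraries taken as the floor. The transglutaminase TGM5 had 59 counts against 2, a ratio of 27.0 (95% counting interval 7.16 to 229). HRNR, hornerin, had 123 counts against 3, a ratio of 37.6 (12.6 to 185), but its call was lost in DESeq2 (adjusted p = 0.46). RPTN, repetin, stood at 2.94 and 3.10 CPM at day 8, against 0.0917 and 0.135 CPM at day 6. The intervals and floors cover counting error only. The member that fell, SCEL or sciellin, averaged 6.14 ± 0.0851 CPM at day 8, against 8.64 ± 0.426 CPM at day 6. TGM1, the keratinocyte transglutaminase, averaged 21.6 ± 2.43 CPM at day 8, against 25.0 ± 0.0192 CPM at day 6 with an adjusted p of 0.075. SCEL and TGM1 were singled out after their values were seen.

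Transcription factors of stratification rose in 20 of 25 genes and fell in none, with a median of 0.93, and 11 rose at least 2-fold. BARX2, a homeobox factor of stratified epithelia and hair, stood at 50.1 and 48.8 CPM at day 8, against 16.9 and 20.1 CPM at day 6 (log2 fold change 1.42 ± 0.11 (SE), adjusted p = 2.7e-10). POU2F3, or SKN-1A, which drives late keratinocyte genes, stood at 23.1 and 21.6 CPM at day 8, against 8.89 and 8.25 CPM at day 6 (log2 fold change 1.38). TFAP2C, an AP-2 factor of epidermis and mammary epithelium, stood at 77.2 and 79.3 CPM at day 8, against 34.9 and 28.8 CPM at day 6 (log2 fold change 1.30). In all 3 the days were well apart. TFCP2L1, a grainyhead-related factor, stood at 106 and 105 CPM at day 8, against 42.6 and 41.0 CPM at day 6 (log2 fold change 1.33). KLF4, needed for the epidermal barrier in mice, stood at 57.4 and 58.2 CPM at day 8, against 32.7 and 31.1 CPM at day 6 (log2 fold change 0.86). CEBPA stood at 51.8 and 53.2 CPM at day 8, against 23.8 and 21.5 CPM at day 6 (log2 fold change 1.22). KDF1, a keratinocyte differentiation factor, rose by 1.26 and POU3F1, another POU factor of the epidermis, by 2.04 (log2). POU3F1 was near the floor on both days, with 0.712 and 0.818 CPM at day 8, against 0.138 and 0.225 CPM at day 6. POU3F1 (adjusted p = 0.161 in DESeq2) lost its call in at least 1 of the 24 alternatives, of which that with the highest p is given.

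Barrier lipid genes, whose enzymes make and place the ceramides of the cornified layer, rose in 12 of 19 and fell in 2. Their median was 0.73. ALOX12B and ALOXE3, the lipoxygenases that oxidise acylceramides, were low on both days. ALOX12B stood at 1.66 and 1.98 CPM at day 8, against 0.458 and 0.586 CPM at day 6 (log2 fold change 1.79 ± 0.46 (SE), adjusted p = 0.00242). ALOXE3 stood at 1.14 and 0.775 CPM at day 8, against 0.229 and 0.0901 CPM at day 6 (log2 fold change 2.54 ± 0.63 (SE), adjusted p = 0.00201). ELOVL4, which makes ultra-long fatty acids for these lipids, stood at 7.27 and 8.18 CPM at day 8, against 4.17 and 2.93 CPM at day 6 (log2 fold change 1.12 ± 0.17 (SE), adjusted p = 4.97e-06). The rises of CYP4F22, the hydroxylase of the same pathway, LIPM, an epidermal lipase, and ACER1, an alkaline ceramidase, were 1.02, 1.41 and 2.06 (log2), each with day 8 libraries above both day 6 libraries. ALOXE3 (adjusted p = 0.0527 in DESeq2) and ACER1 (adjusted p = 0.0628 without day 6 replicate 1) lost their calls in at least 1 alternative.

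Cell contacts followed, with the desmosome ahead. Of 12 tested desmosome genes 11 rose and 1 fell. Their median was 0.92. DSP, the plakin that ties desmosomes to keratin, stood at 2930 and 2881 CPM at day 8, against 1498 and 1414 CPM at day 6 (log2 fold change 1.00 ± 0.051 (SE), adjusted p = 2.34e-13). DSG1, the cadherin of suprabasal cells, stood at 259 and 241 CPM at day 8, against 117 and 118 CPM at day 6 (log2 fold change 1.09 ± 0.067 (SE), adjusted p = 7.01e-12). The plakophilin gene PKP3, the armadillo gene JUP, the tetraspan gene PERP and the desmocollin gene DSC3 rose by 1.34, 1.01, 1.02 and 0.93 (log2). The member that fell was DSG2, the desmoglein of simple epithelia, singled out after its values were seen, at 15.7 and 14.8 CPM at day 8, against 20.9 and 22.2 CPM at day 6 (log2 fold change -0.50 ± 0.10 (SE), adjusted p = 0.000316). Adherens and tight junction genes rose in 14 of 29 and fell in 3, with a median of 0.32, and with the length adjustment 15 rose and 1 fell. RAB25, an epithelial recycling GTPase, rose by 1.40, the polarity gene CRB3 by 1.28, the splicing regulator ESRP1 by 0.86 and F11R, which encodes a tight junction adhesion molecule, by 0.76. CDH1, E-cadherin, stood at 219 and 212 CPM at day 8, against 138 and 132 CPM at day 6 (log2 fold change 0.68 ± 0.058 (SE), adjusted p = 1.66e-09). EPCAM, an adhesion molecule of simple and progenitor epithelium, stood at 88.4 and 95.2 CPM at day 8, against 73.3 and 69.2 CPM at day 6 (log2 fold change 0.37 ± 0.071 (SE), adjusted p = 0.00016). ST14, a membrane protease of epithelia, fell, with 3.94 and 3.83 CPM at day 8, against 6.83 and 6.08 CPM at day 6 (log2 fold change -0.73).

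**Figure D4:**
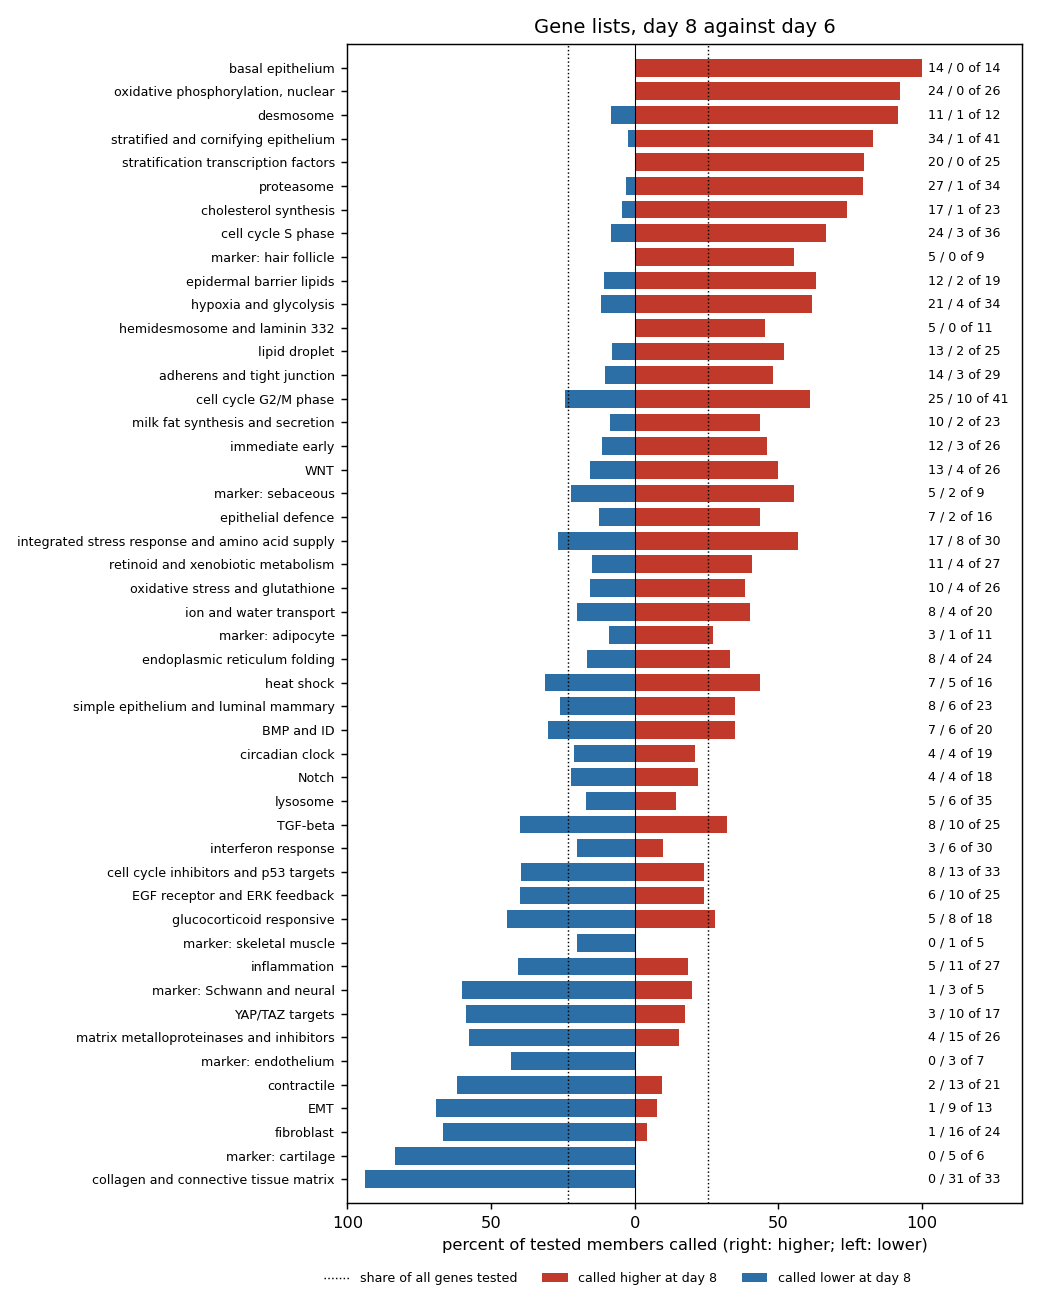
Percent of the tested members of each list called higher (red, to the right) or lower (blue, to the left) at day 8 than at day 6, for lists with at least 5 tested members, with the counts of higher and lower calls at the right. Dotted lines mark the shares over all genes tested, 25.6% and 23.2%, and the basal list, at 14 of 14 higher, and the collagen list, at 31 of 33 lower, are the ends of the order.

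Simple and luminal mammary genes and milk proteins were examined because the labelled cell type is induced mammary epithelial cells. Of 23 tested simple and luminal genes 8 rose and 6 fell, with a median of 0.25. These are 34.8% and 26.1% of the list, against 25.6% and 23.2% of all genes tested. With library totals alone 7 rose and 7 fell, and with the length adjustment 11 rose and 5 fell. KRT8, KRT18 and KRT19 fell. KRT8 stood at 169.5 and 170.2 CPM at day 8, against 347 and 357 CPM at day 6 (log2 fold change -1.05 ± 0.048 (SE), adjusted p = 2.87e-14). KRT19 stood at 497 and 504 CPM at day 8, against 690.5 and 707 CPM at day 6 (log2 fold change -0.48 ± 0.049 (SE), adjusted p = 2.05e-08). KRT7, another simple keratin, rose instead, with 606 and 616 CPM at day 8, against 417 and 431 CPM at day 6 (log2 fold change 0.53 ± 0.055 (SE), adjusted p = 3.3e-08). The keratins of the list therefore moved both ways. ELF5, the transcription factor of mammary alveolar cells, stood at 5.08 and 5.04 CPM at day 8, against 2.43 and 2.57 CPM at day 6 (log2 fold change 1.02 ± 0.29 (SE), adjusted p = 0.00511). WNT4, a WNT ligand that acts downstream of progesterone in the mouse mammary gland, stood at 19.5 and 19.8 CPM at day 8, against 10.3 and 7.80 CPM at day 6 (log2 fold change 1.12 ± 0.19 (SE), adjusted p = 2.98e-05). CD24, a surface protein of luminal cells, averaged 3.55 ± 0.693 CPM at day 8, against 1.66 ± 0.309 CPM at day 6 (log2 fold change 1.09). GATA3, the regulator of luminal fate, stood at 12.3 and 12.3 CPM at day 8, against 10.6 and 9.91 CPM at day 6 (log2 fold change 0.27 ± 0.13 (SE), adjusted p = 0.0843). PRLR, the prolactin receptor, stood at 8.93 and 8.22 CPM at day 8, against 7.29 and 5.63 CPM at day 6 (log2 fold change 0.41 ± 0.21 (SE), adjusted p = 0.115). Both were higher in each day 8 library than in either day 6 library. Such a separation, up or down, was found in 75.1% of all genes tested. Neither gene passed the test. Both passed it with the length adjustment (adjusted p = 0.024 for GATA3 and 0.00644 for PRLR). CD24 (adjusted p = 0.0593 without day 8 replicate 1) lost its call in at least 1 alternative.

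Milk protein genes were at or near 0. CSN2 and LALBA, which encode beta-casein and alpha-lactalbumin, had 0 counts in all 4 libraries, and CSN3, kappa-casein, had 1 count in 1 day 8 library. With 3 counts as the limit that a count of 0 allows, such a gene could have been at up to 0.139 and 0.126 CPM in the day 8 libraries and 0.146 and 0.142 CPM in the day 6 libraries. LTF, lactoferrin, had 7 and 8 counts at day 8, against 4 and 0 at day 6, too few to be tested. Of the 12 milk protein genes in the table, 7 had no count in any of the 14 libraries and 2 were tested, of which 1, the SPP1 named above, fell; the median of these 2 was -1.01. The defining milk genes were thus at or near 0 at day 8. The composition of the medium is not stated, so whether they would be induced in it is not known. Their counts therefore do not test the mammary label. The simple and luminal genes moved both ways, as the genes of the whole table did. Keratins 5 and 14 are shared by basal mammary and epidermal cells.

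Of 23 milk fat genes 10 rose and 2 fell (median 0.20), though with library totals alone 6 rose and 4 fell (median 0.08). Of 25 lipid droplet genes 13 rose and 2 fell (median 0.23), and of 23 cholesterol synthesis genes 17 rose and 1 fell (median 0.40). FABP4, a fatty acid carrier of adipocytes and mammary cells, stood at 263 and 269.7 CPM at day 8, against 53.6 and 55.3 CPM at day 6 (log2 fold change 2.29 ± 0.071 (SE), adjusted p = 4.77e-17). FABP5, its epidermal relative, stood at 1018 and 1032 CPM at day 8, against 342 and 380.2 CPM at day 6 (log2 fold change 1.5 ± 0.053 (SE), adjusted p = 3.16e-16). Both carriers were more than 2-fold higher in each day 8 library than in either day 6 library. FASN, fatty acid synthase, rose by 0.51, SCD, stearoyl-CoA desaturase, by 0.62 and DGAT2, an enzyme of triglyceride synthesis, by 1.51, and VLDLR, a lipoprotein receptor, by 0.30. MFGE8, a protein of the milk fat globule membrane, fell, with 190.4 and 192 CPM at day 8, against 254 and 270.2 CPM at day 6 (log2 fold change -0.46 ± 0.060 (SE), adjusted p = 9.94e-07). PLIN2, the coat of cytosolic droplets, stood at 487 and 481 CPM at day 8, against 386 and 399.7 CPM at day 6 (log2 fold change 0.30). The nuclear receptor PPARD and PDK4, one of its targets, rose by 0.71 and 0.81, and HILPDA, a droplet protein, by 1.22, while PLIN4 and G0S2, another coat protein and an inhibitor of lipolysis, fell by 0.65 and 0.94 (log2). In the cholesterol pathway HMGCS1, the synthase before HMG-CoA reductase, stood at 182 and 181 CPM at day 8, against 112 and 109 CPM at day 6 (log2 fold change 0.72 ± 0.054 (SE), adjusted p = 2.33e-10). Its later enzymes PMVK, MVD, MVK, IDI1 and NSDHL rose by 1.13, 0.78, 0.67, 0.61 and 0.66.

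Mesenchymal genes fell over a broad front and by small amounts. Of 33 tested collagen and connective tissue matrix genes 31 fell and none rose. Their median was -0.55. Since these genes are long (median 5888 bases), the length adjustment matters: it left 25 lower and 1 higher. Their median was -0.41. COL1A1, the main chain of type I collagen, stood at 5134 and 5286 CPM at day 8, against 6608 and 6531 CPM at day 6 (log2 fold change -0.33 ± 0.051 (SE), adjusted p = 9.44e-06). FBN1, fibrillin of elastic microfibrils, stood at 345 and 354 CPM at day 8, against 662 and 618 CPM at day 6 (log2 fold change -0.87 ± 0.063 (SE), adjusted p = 1.08e-10). FBLN5, a fibulin of elastic fibres, stood at 11.9 and 9.94 CPM at day 8, against 27.3 and 24.8 CPM at day 6 (log2 fold change -1.26). NID2, a nidogen of basement membranes, fell by 0.89 and COL11A1, a fibrillar collagen, by 0.81 (log2). Of 24 fibroblast genes 16 fell and 1 rose. Their median was -0.37. POSTN, periostin, stood at 35.3 and 38.2 CPM at day 8, against 88.7 and 84.8 CPM at day 6 (log2 fold change -1.24 ± 0.073 (SE), adjusted p = 3.26e-12). LUM, the proteoglycan lumican, stood at 327 and 346 CPM at day 8, against 611 and 615 CPM at day 6 (log2 fold change -0.86). PDGFRA, the receptor that marks many fibroblasts, stood at 48.4 and 52.4 CPM at day 8, against 92.4 and 85.7 CPM at day 6 (log2 fold change -0.82), and CD248 and MEOX2 fell by 0.91 and 0.68. VIM, the intermediate filament of mesenchyme, stood at 3310 and 3387 CPM at day 8, against 4936 and 5118 CPM at day 6 (log2 fold change -0.59 ± 0.040 (SE), adjusted p = 3.44e-11), so its level at day 8 was lower but still high.

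Genes of epithelial-mesenchymal transition (EMT) fell in 9 of 13 and rose in 1. Their median was -0.59. ZEB2 and ZEB1, repressors of E-cadherin, stood apart between the days. ZEB2 stood at 51.7 and 57.2 CPM at day 8, against 115 and 106 CPM at day 6 (log2 fold change -1.02 ± 0.076 (SE), adjusted p = 2.07e-10). ZEB1 stood at 16.5 and 14.7 CPM at day 8, against 29.0 and 27.4 CPM at day 6 (log2 fold change -0.85 ± 0.11 (SE), adjusted p = 7.86e-07). SNAI1, CDH2 (N-cadherin), the receptor kinase gene AXL and FN1 (fibronectin) fell by 0.96, 0.87, 0.73 and 0.65 (log2). Of 21 contractile genes 13 fell and 2 rose. Their median was -0.29. ACTA2, smooth muscle actin, stood at 3343 and 3415 CPM at day 8, against 4460 and 4764 CPM at day 6 (log2 fold change -0.45 ± 0.045 (SE), adjusted p = 1.92e-08). TAGLN, an actin-binding protein of smooth muscle, stood at 1285 and 1310 CPM at day 8, against 1832 and 1843 CPM at day 6 (log2 fold change -0.50). MYH11, smooth muscle myosin, which myoepithelial cells also carry, rose, with 1461 and 1514 CPM at day 8, against 928 and 903 CPM at day 6 (log2 fold change 0.70 ± 0.053 (SE), adjusted p = 2.43e-10). CALD1, LMOD1, ACTG2 and TPM2 fell by 0.77, 0.54, 0.54 and 0.46, and the split between ACTA2 and ACTG2 reads is uncertain. Matrix metalloproteinases and their regulators fell in 15 of 26 and rose in 4. Their median was -0.37. MMP3, stromelysin, rose, with 25.0 and 28.1 CPM at day 8, against 13.2 and 13.4 CPM at day 6 (log2 fold change 1.00). ADAMTS5, ADAMTS4, MMP17 and the urokinase receptor gene PLAUR fell by 0.88, 0.86, 0.97 and 0.84.

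Among growth factor pathways, WNT genes rose in 13 of 26, with 4 falls and a median of 0.52. With the length adjustment 14 rose and 2 fell, and with library totals alone 11 rose and 6 fell. WNT10A, a ligand of skin appendages and stratified epithelium, stood at 38.3 and 37.1 CPM at day 8, against 11.4 and 10.9 CPM at day 6 (log2 fold change 1.76 ± 0.12 (SE), adjusted p = 1.9e-11). FZD10, a receptor, stood at 70.0 and 69.2 CPM at day 8, against 19.6 and 22.4 CPM at day 6 (log2 fold change 1.73 ± 0.080 (SE), adjusted p = 3.91e-14). WNT6, another ligand, stood at 7.98 and 6.5 CPM at day 8, against 1.97 and 1.49 CPM at day 6 (log2 fold change 2.06). WNT16 rose by 1.40, while the secreted inhibitor SFRP4 and the receptor LGR6 fell by 1.34 and 1.51 at levels of a few CPM or less. TGF-beta genes moved both ways, with 8 of 25 higher and 10 lower and a median of -0.05; with the length adjustment 9 were higher and 6 lower, and with library totals alone 4 and 13. IGFBP3, an IGF-binding protein induced by TGF-beta, stood at 4709 and 4640 CPM at day 8, against 1731 and 1785 CPM at day 6 (log2 fold change 1.41 ± 0.042 (SE), adjusted p = 2.9e-17). TGFBI, a secreted TGF-beta target, rose by 0.69, as did the co-receptor gene TGFBR3 by 0.79. FST, follistatin, which binds activins, stood at 14.7 and 15.6 CPM at day 8, against 48.5 and 48.4 CPM at day 6 (log2 fold change -1.68 ± 0.066 (SE), adjusted p = 2.33e-15). INHBA, the activin subunit, fell by 0.80. Of 20 BMP and ID genes 7 rose and 6 fell. Their median was -0.06, and with library totals alone 7 rose and 8 fell. ID1, a direct BMP target that restrains differentiation, stood at 209 and 205 CPM at day 8, against 94.9 and 99.8 CPM at day 6 (log2 fold change 1.09 ± 0.079 (SE), adjusted p = 1.02e-10). ID2, its relative, and the ligand BMP7 rose by 0.61 and 0.90. The receptors BMPR2 and BMPR1A and the ligand BMP4 fell, with log2 fold changes of -1.02, -0.77 and -0.91. LGR6 (adjusted p = 0.183 without day 8 replicate 1) lost its call in at least 1 alternative.

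Notch genes split evenly, with 4 of 18 higher and 4 lower and a median of 0.03. These are 22.2% each way, near the 25.6% and 23.2% of all genes tested. The median was -0.09 with library totals alone, where 3 were higher and 6 lower. With the length adjustment 9 were higher and 5 lower. HES1, the main Notch target, rose by 0.44 and the ligand DLL1 by 0.55, HEYL rose by 1.09, and HES5, HEY1 and the glycosyltransferase LFNG fell by 1.94, 0.57 and 1.32 at levels under 6 CPM. EGF receptor and ERK feedback genes rose in 6 of 25 (24.0%, near the share of all genes) and fell in 10 (40.0%). Their median was -0.20, and with the length adjustment 9 rose and 8 fell. ETV4, ETV5 and DUSP4, which respond to ERK, fell by 1.05, 0.73 and 0.73, and ERBB3, a receptor of the family, rose by 0.92, as did the ligand EPGN by 2.00, while the ligand BTC fell by 0.68. Immediate early genes rose in 12 of 26 and fell in 3. Their median was 0.24. MYC stood at 172 and 169 CPM at day 8, against 114 and 115 CPM at day 6 (log2 fold change 0.57 ± 0.054 (SE), adjusted p = 7.48e-09). FOSL1, an AP-1 subunit of keratinocytes, stood at 24.8 and 25.8 CPM at day 8, against 16.6 and 17.2 CPM at day 6 (log2 fold change 0.58). The genes EGR3, IER2 and IER5 rose by 1.27, 0.54 and 0.53, while the nuclear receptor NR4A3 fell by 1.14. YAP/TAZ targets fell in 10 of 17 and rose in 3, with a median of -0.24, and with the length adjustment 8 fell and 4 rose. CCN2 stood at 364 and 364 CPM at day 8, against 525 and 538 CPM at day 6 (log2 fold change -0.55 ± 0.043 (SE), adjusted p = 4.37e-10). The targets CCN1, CRIM1, TEAD1 and ANKRD1 fell by 0.53, 0.45, 0.71 and 0.86. HES5 (adjusted p = 0.103 without day 8 replicate 2), HEYL (adjusted p = 0.177 without day 6 replicate 1) and HEY1 (adjusted p = 0.153 without day 6 replicate 1) lost their calls in at least 1 alternative. EPGN (adjusted p = 0.123 without day 8 replicate 2), ETV5 (adjusted p = 0.104 without day 8 replicate 2), BTC (adjusted p = 0.0868 without day 8 replicate 2), NR4A3 (adjusted p = 0.0616 without day 8 replicate 1) and ANKRD1 (adjusted p = 0.158 without day 8 replicate 2) lost their calls in at least 1 alternative.

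Inflammatory genes fell in 11 of 27 and rose in 5. Their median was -0.27. CXCL6, a neutrophil chemokine, stood at 529 and 498 CPM at day 8, against 1010 and 940.2 CPM at day 6 (log2 fold change -0.92 ± 0.057 (SE), adjusted p = 6.68e-12). CXCL8 stood at 3.13 and 3.57 CPM at day 8, against 7.61 and 7.57 CPM at day 6 (log2 fold change -1.17). CCL2 and BIRC3, a monocyte chemokine and an NF-kB target that blocks cell death, fell by 0.56 and 1.11. IL1RN, the interleukin 1 receptor antagonist, rose, with 10.1 and 9.04 CPM at day 8, against 3.99 and 4.82 CPM at day 6 (log2 fold change 1.11), as did NFKB1 by 0.65. Of 30 interferon response genes 3 rose and 6 fell, with a median of -0.05. With the length adjustment 2 rose and 9 fell, and with library totals alone 2 rose and 13 fell. IFIT1, an interferon-induced RNA-binding protein, stood at 8.31 and 11.4 CPM at day 8, against 31.9 and 31.9 CPM at day 6 (log2 fold change -1.69 ± 0.11 (SE), adjusted p = 1.86e-11). The interferon genes IRF1, IFI44L and IFI44 fell by 0.69, 0.72 and 0.70, while MX2 and ISG20 rose by 0.99 and 0.94. Epithelial defence genes rose in 7 of 16 and fell in 2. Their median was 0.49. S100A8 and S100A9, the calprotectin subunits that keratinocytes make under stress, rose together. S100A8 stood at 483 and 516 CPM at day 8, against 170.5 and 199 CPM at day 6 (log2 fold change 1.44 ± 0.064 (SE), adjusted p = 2.23e-14). S100A9 stood at 475 and 461 CPM at day 8, against 183 and 203 CPM at day 6 (log2 fold change 1.28 ± 0.054 (SE), adjusted p = 8.57e-15). S100A12, their close relative, stood at 501 and 535 CPM at day 8, against 127 and 157 CPM at day 6 (log2 fold change 1.87). S100A7, psoriasin, had 429 counts at day 8 against 3 at day 6, a ratio of 131 (95% counting interval 44.6 to 638). SLPI, a protease inhibitor, had 69 counts against 0, at least 21.1-fold higher with the same floor. DUOXA1, the maturation factor of dual oxidase, rose by 0.95. ISG20 (adjusted p = 0.125 without day 6 replicate 1), IFI44L (adjusted p = 0.0559 without day 6 replicate 1) and IFI44 (adjusted p = 0.285 without day 6 replicate 1) lost their calls in at least 1 alternative.

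Cell cycle genes rose more often than they fell. Of 36 S phase genes 24 rose and 3 fell (median 0.33), and of 41 G2/M genes 25 rose and 10 fell (median 0.27). MKI67, the proliferation marker, stood at 487 and 485 CPM at day 8, against 348 and 319.9 CPM at day 6 (log2 fold change 0.54 ± 0.065 (SE), adjusted p = 2.83e-07). RRM2, the ribonucleotide reductase subunit of S phase, stood at 303 and 300.3 CPM at day 8, against 214 and 206 CPM at day 6 (log2 fold change 0.52). SLBP, E2F2, E2F8 and RACGAP1 rose by 0.58, 0.77, 0.49 and 0.55. Other cell cycle genes went down at the same time. CENPF, a kinetochore protein, stood at 45.4 and 48.3 CPM at day 8, against 113 and 105 CPM at day 6 (log2 fold change -1.22 ± 0.085 (SE), adjusted p = 5.39e-11). CENPE, a kinetochore motor, stood at 21.1 and 19.9 CPM at day 8, against 52.8 and 51.0 CPM at day 6 (log2 fold change -1.34 ± 0.13 (SE), adjusted p = 1.46e-08). HMMR, TOP2A and CCNE2 fell by 0.79, 0.58 and 0.94 (log2), so the cycle lists did not move as a block. Cell cycle inhibitors and p53 targets fell in 13 of 33 and rose in 8. Their median was -0.10, and with the length adjustment 12 rose and 11 fell, while with library totals alone 6 rose and 16 fell. CDKN1A, the p21 inhibitor, stood at 228 and 224 CPM at day 8, against 391 and 389 CPM at day 6 (log2 fold change -0.79 ± 0.047 (SE), adjusted p = 3.53e-12). MDM2, CCNG1 and ZMAT3, further p53 targets, fell by 0.80, 0.65 and 1.14, and CCND3 fell by 0.75. SFN, 14-3-3 sigma, a p53 target that is also a keratinocyte gene, rose, with 1416 and 1423 CPM at day 8, against 667 and 686 CPM at day 6 (log2 fold change 1.07 ± 0.054 (SE), adjusted p = 2.33e-13).

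Nuclear genes of oxidative phosphorylation rose in 24 of 26 with no fall, and their median was 0.46. These genes are short (median 1244 bases), and with the length adjustment 23 rose, none fell and the median was 0.30. COX5B, a subunit of cytochrome oxidase, stood at 167 and 173 CPM at day 8, against 84.2 and 103 CPM at day 6 (log2 fold change 0.86 ± 0.071 (SE), adjusted p = 7.74e-10). UQCRFS1, the Rieske protein of complex III, stood at 137 and 138 CPM at day 8, against 80.1 and 84.6 CPM at day 6 (log2 fold change 0.74). UQCRC2, ATP5C1, NDUFB8 and NDUFA1 rose by 0.64, 0.61, 0.59 and 0.79. Proteasome genes rose in 27 of 34 and fell in 1. Their median was 0.26, and with the length adjustment 23 rose, 3 fell and the median was 0.14. PSMA6, PSMD7, PSMB6, PSMB5 and PSMA7 rose by 0.47, 0.47, 0.44, 0.43 and 0.41. PSMC6, an ATPase of the regulatory particle, fell, with 58.4 and 63.5 CPM at day 8, against 85.5 and 80.8 CPM at day 6 (log2 fold change -0.45). Hypoxia and glycolysis genes rose in 21 of 34 and fell in 4, with a median of 0.23, and with library totals alone 15 rose and 6 fell. SLC2A1, the glucose transporter GLUT1, stood at 2021 and 1955 CPM at day 8, against 1252 and 1248 CPM at day 6 (log2 fold change 0.67 ± 0.045 (SE), adjusted p = 2.93e-11). SLC16A3, BHLHE40 and PFKL rose by 0.94, 0.94 and 0.76, and ALDOC and P4HA1 fell by 1.37 and 0.76. The call of PFKL was lost with the length adjustment (adjusted p = 0.0509).

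Integrated stress response and amino acid supply genes rose in 17 of 30 and fell in 8. Their median was 0.24. The transporters SLC7A1 and SLC7A5, which carry cationic and large neutral amino acids, rose. SLC7A1 stood at 406 and 405 CPM at day 8, against 204 and 211 CPM at day 6 (log2 fold change 0.97 ± 0.048 (SE), adjusted p = 1.59e-13). SLC7A5 stood at 1246 and 1251 CPM at day 8, against 712 and 732 CPM at day 6 (log2 fold change 0.79 ± 0.046 (SE), adjusted p = 2.38e-12). PSAT1, of serine synthesis, rose by 0.55, and SLC7A11, the cystine transporter, GDF15 and ALDH1L2 fell by 0.91, 1.17 and 0.63. Endoplasmic reticulum folding genes rose in 8 of 24 and fell in 4. Their median was 0.08, and with library totals alone 2 rose and 9 fell, while with the length adjustment 10 rose and 2 fell. CANX, XBP1 and MANF rose by 0.30, 0.25 and 0.27, and DNAJB9, SDF2L1 and DNAJC3 fell by 0.39, 0.26 and 0.25. The calls of MANF (adjusted p = 0.251) and DNAJC3 (0.0947) were lost with the length adjustment, and that of DNAJC3 also without day 8 replicate 2 (0.0982). Heat shock genes rose in 7 of 16 and fell in 5 (median 0.13), and with library totals alone 5 rose and 6 fell. HSPB8, DNAJB1, HSPD1 and HSP90AB1 rose by 0.94, 0.69, 0.43 and 0.41, and SERPINH1, the collagen chaperone, and HSPA2 fell by 0.53 and 0.38. DNAJB9 (adjusted p = 0.0985 without day 8 replicate 2), SDF2L1 (adjusted p = 0.0548 without day 6 replicate 1) and XBP1 (adjusted p = 0.0843 with library totals alone) lost their calls in at least 1 alternative.

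Oxidative stress and glutathione genes had no direction that held across scalings: 10 of 26 rose and 4 fell with a median of 0.03, while with the length adjustment 6 rose and 10 fell, and with library totals alone 5 rose and 10 fell. GSTA1, a glutathione transferase, was well apart, with 385 and 388 CPM at day 8, against 105 and 103 CPM at day 6 (log2 fold change 1.89 ± 0.057 (SE), adjusted p = 2.9e-17). GPX2, an epithelial glutathione peroxidase, rose by 1.06, TXN by 0.65 and GCLC by 0.47, and GPX3 fell by 0.84. Lysosome genes changed in 11 of 35, with 5 higher, 6 lower and a median of -0.03, but library totals alone gave 2 rises, 13 falls and a median of -0.15. CTSV, a cathepsin of epidermis and thymus, rose by 0.56, and CTSK, CTSZ, CTSH and CD63 fell by 0.55, 0.41, 0.41 and 0.37. Retinoid and xenobiotic genes rose in 11 of 27 and fell in 4. Their median was 0.15. CYP26B1, which clears retinoic acid, stood at 166 and 165 CPM at day 8, against 84.7 and 83.5 CPM at day 6 (log2 fold change 0.98 ± 0.065 (SE), adjusted p = 2.68e-11). The retinoic acid binding protein gene CRABP1 rose by 2.34, DHRS9 by 0.95 and RDH12 by 0.80, and ALDH3B1 fell by 0.85. Glucocorticoid-responsive genes fell in 8 of 18 and rose in 5 (median -0.13), and with library totals alone 8 fell and 3 rose. NR3C1, the receptor, FAM107A, ZBTB16 and PER1 fell, with log2 fold changes of -0.63, -1.41, -1.03 and -0.77. HSD11B2, which inactivates cortisol, rose by 0.97. Circadian clock genes rose in 4 of 19 and fell in 4 (median 0.14), with NFIL3 higher by 0.64 and CLOCK and RORA lower at -0.88 and -0.96. These are 21.1% each way, near the 25.6% and 23.2% of all genes tested. CRABP1 (adjusted p = 0.0834 in DESeq2), RDH12 (adjusted p = 0.06 without day 8 replicate 2), HSD11B2 (adjusted p = 0.0535 without day 8 replicate 1) and RORA (adjusted p = 0.206 without day 6 replicate 1) lost their calls in at least 1 alternative.

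Ion and water transport genes rose in 8 of 20 and fell in 4, with a median of 0.04 that was -0.07 with library totals alone. AQP3, the water and glycerol channel of epidermis, stood at 766 and 726 CPM at day 8, against 188 and 188 CPM at day 6 (log2 fold change 1.99 ± 0.088 (SE), adjusted p = 1.68e-14). The epithelial sodium channel subunits rose as well. SCNN1G stood at 15.3 and 14.1 CPM at day 8, against 3.44 and 3.42 CPM at day 6 (log2 fold change 2.10 ± 0.18 (SE), adjusted p = 2.43e-09). SCNN1B stood at 7.55 and 6.29 CPM at day 8, against 1.83 and 1.89 CPM at day 6 (log2 fold change 1.89 ± 0.28 (SE), adjusted p = 6.17e-06). CLCA2, a chloride channel regulator of keratinocytes, rose by 0.73 and the potassium channel gene KCNK1 by 0.60, and SLC30A4, a zinc transporter of mammary cells, fell by 0.82. Of 16 listed pluripotency genes, 8 had no count in any library and 4 were tested, of which TFCP2L1 and KLF4, named above, rose and none fell (median 0.41). Of 32 HOX genes 2 were tested and neither passed the test (median 0.11).

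Markers of other cell types differed from list to list. Cartilage markers fell in 5 of 6 tested genes (median -1.09), among them HAPLN1, CHAD, MATN3 and SOX9 with log2 fold changes of -1.42, -1.37, -1.78 and -0.31. The summed level of the cartilage list was 220.1 and 207 CPM at day 8, against 359.8 and 347 CPM at day 6. Endothelial markers fell in 3 of 7 (median -0.45), with ENG, ERG and EGFL7 at -0.48, -0.45 and -0.83. The endothelial list had a summed level of 32.8 and 33.8 CPM at day 8, against 47.4 and 46.1 CPM at day 6. Of 4 tested leukocyte markers 1, FCER1G, fell (median -0.34), PTPRC, MS4A1 and CD4 had no count in any library, and the summed level was 11.4 and 11.4 CPM at day 8, against 12.7 and 13.3 CPM at day 6. Skeletal muscle markers fell in 1 of 5 (median 0.11), the ACTA1 named above, and MYOD1, MYOG and MYF5 had 0 counts. The muscle list had a summed level of 2.99 and 2.71 CPM at day 8, against 7.33 and 6.04 CPM at day 6. None of 3 tested melanocyte markers changed (median 0.03), TYR, MLANA and DCT had no counts, and the summed level was 17.6 and 18.1 CPM at day 8, against 17.2 and 16.9 CPM at day 6. Schwann and neural markers fell in 3 of 5 and rose in 1 (median -0.60). S100B, a glial and cartilage protein, stood at 14.7 and 16.4 CPM at day 8, against 38.9 and 42.5 CPM at day 6 (log2 fold change -1.38 ± 0.088 (SE), adjusted p = 1.28e-11). STMN2 and NEFM fell by 0.74 and 0.40, and TUBB3, a neuronal tubulin, rose, with 94.5 and 95.6 CPM at day 8, against 48.9 and 48.8 CPM at day 6. The neural list had a summed level of 121 and 122 CPM at day 8, against 104 and 106 CPM at day 6. TUBB3 made up most of the day 8 sum. FCER1G (adjusted p = 0.131 without day 6 replicate 1), MATN3 (adjusted p = 0.112 without day 6 replicate 2), STMN2 (adjusted p = 0.0771 without day 8 replicate 2) and NEFM (adjusted p = 0.353 without day 8 replicate 2) lost their calls in at least 1 alternative.

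Markers of skin appendages and fat were examined as well. Hair follicle markers rose in 5 of 9 with no fall (median 0.47). KRT75, a keratin of the companion layer, stood at 18.1 and 18.7 CPM at day 8, against 6.33 and 7.71 CPM at day 6 (log2 fold change 1.39 ± 0.15 (SE), adjusted p = 5.57e-08). KRT15 rose as above, and the transcription factor genes SOX21, FOXN1 and MSX2 rose by 0.93, 0.80 and 0.40. The list had a summed level of 2071 and 2097 CPM at day 8, against 1461 and 1539 CPM at day 6. Nearly all of this sum was KRT15, which is also a basal keratin. Sebaceous markers rose in 5 of 9 and fell in 2 (median 0.23; 3 and 2 with library totals alone), with KRT79 and ELOVL5 higher by 1.78 and 0.73, and FADS2 and SOAT1 lower at -0.49 and -0.27. Its summed level was 503 and 497 CPM at day 8, against 382 and 397 CPM at day 6. Adipocyte markers rose in 3 of 11 (27.3%, near the share of all genes) and fell in 1 (9.09%), with a median of -0.12. FABP4 and CEBPA, both also named above, rose most, with AGPAT2 at 0.53 and GPD1 lower at -0.51. The summed level of the adipocyte list was 368 and 378 CPM at day 8, against 119 and 122 CPM at day 6. FABP4 made up most of the day 8 sum. SOAT1 (adjusted p = 0.13 without day 6 replicate 2), FOXN1 (adjusted p = 0.124 without day 8 replicate 1) and GPD1 (adjusted p = 0.176 without day 8 replicate 1) lost their calls in at least 1 alternative. The part of any of these cell types in the results was not tested.

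Whether the step from day 6 to day 8 differed from the step of the same length before it, from day 4 to day 6, was tested by the difference of the 2 log2 fold changes. Both steps use the day 6 libraries, with opposite sign, so a deviation of those libraries enters both steps. The difference was positive, that is, the later step was more upward, in 4139 genes (26.3%) and negative in 3036 (19.3%), together 45.7% of genes. Over the earlier step 8522 genes changed (54.2%), 1551 of them at least 2-fold (9.87%). Among stratified genes the later step was less upward in 14 and more upward in 9 of 41. IVL is an example of a rise that slowed on the log2 scale, with a log2 fold change of 1.21 over the later step, 3.28 over the earlier one and a difference of -2.07 (adjusted p = 8e-12). DSG1 had 1.09 and 4.04 (difference -2.95, adjusted p = 3.02e-13), and AQP3 had 1.99 and 4.02 (difference -2.03). In CPM, however, IVL, DSG1 and AQP3 each gained more over the later step than over the earlier one. On the log2 scale KRT10 went the other way, with 2.48 over the later and 1.91 over the earlier step (difference 0.57). So did KRT14, with 1.13 and 0.76 (difference 0.36, adjusted p = 0.000934). In KRT5 the steps were 0.89 and 0.79 (difference 0.10, adjusted p = 0.326). Among falling genes, KRT8 slowed, with -1.05 over the later and -2.40 over the earlier step (difference 1.35, adjusted p = 1.97e-11). SPP1 fell by 2.47 over the later step after a rise of 1.39 over the earlier one (difference -3.85). AQP3, SPP1 and KRT10 were among the genes named for the size of their change over the later step. That step is part of the difference, so no p-value is given for these genes.

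Several lists had many genes with a positive difference, whether or not their levels changed over the later step. Of 35 lysosome genes 23 had a positive difference and none a negative one. The summed level of the list was 3994 and 4036 CPM at day 8, 3853 and 3992 CPM at day 6 and 5476 and 5656 CPM at day 4. Oxidative phosphorylation genes had 24 of 26 positive and none negative. Their summed level was 5062 and 5125 CPM at day 8, 3579 and 3756 CPM at day 6 and 4230 and 4378 CPM at day 4. With the length adjustment 22 were positive and 1 negative. Of the other lists with many positive differences, proteasome genes had 29 of 34 positive and 4 negative (20 and 5 with the length adjustment), and integrated stress response genes 23 of 30 positive and 4 negative. Hypoxia and glycolysis genes had 21 of 34 positive and 3 negative, cholesterol synthesis genes 17 of 23 and 2, and endoplasmic reticulum folding genes 17 of 24 and 2. Collagen and matrix genes had 7 of 33 each way, but 20 positive and 4 negative with the length adjustment. The balance of positive and negative differences over all genes depended on the scaling, with 1695 positive and 4179 negative with library totals alone. Without the replicate 1 library of day 6, the one most tilted to long genes, 2460 were positive and 2395 negative.

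**Figure D5:**
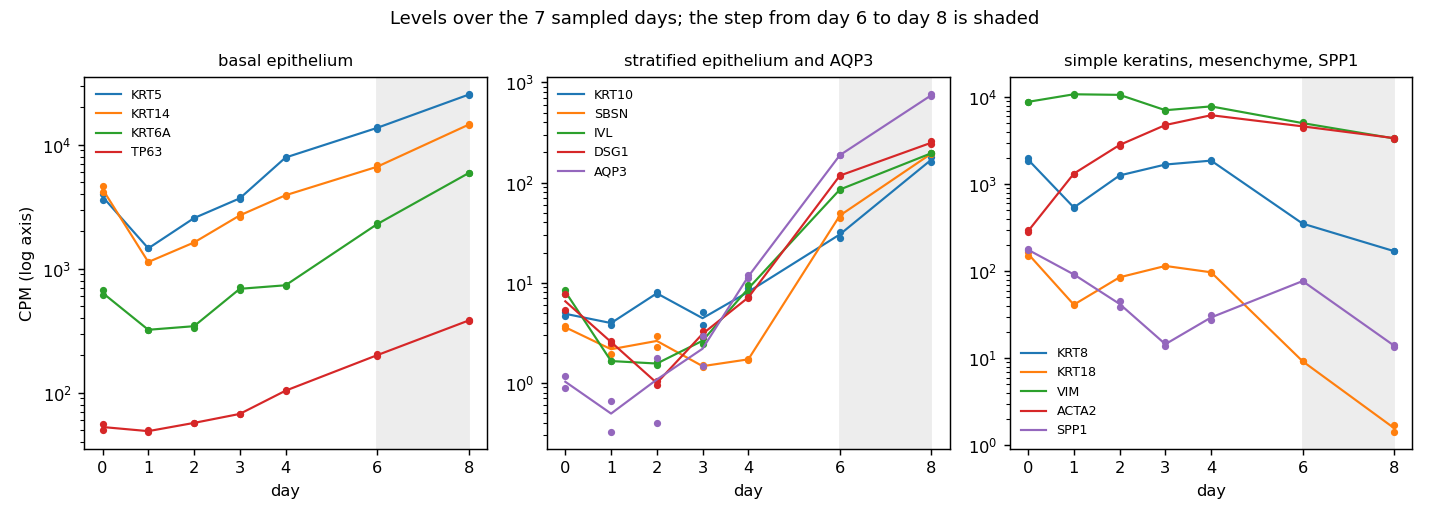
CPM on a log axis against day (0 to 8) for basal genes (left), stratified genes and AQP3 (middle) and simple keratins, mesenchymal genes and SPP1 (right), with points for libraries, lines through the day means and the step from day 6 to day 8 shaded. On this axis KRT10 climbs more steeply over the shaded step than over the step before it, and SBSN, IVL and DSG1 climb less steeply. KRT18 ends at 1.57 CPM, its lowest day.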

How the data were processed

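RNA was depleted of ribosomal RNA with Ribo-Zero Gold and made into TruSeq libraries, per the labels' protocols. The deposited table holds 1 estimated count per gene and library, made by the authors; 90.0% of the values are whole. The tools were FastQC 0.10.1, HTSeq and DESeq2 1.16.1, per the submitters' processing notes. The sources used here give no aligner, build or strand setting. Reads of overlapping or antisense genes therefore cannot be assigned with certainty, and fractional counts may have split reads of near-identical genes. Symbols came from the table (25219 of 30277 genes) or, through the Entrez identifier, from the RefSeq table of assembly ARS1.2 (3687), and 37 list members were matched by their description or an older symbol. No sequences or coordinates are given, since no genome was used. A gene line without values (1 in all) was dropped.

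Counts were rounded, scaled by TMM and filtered by filterByExpr with the 7 days as groups, in edgeR 4.0.16 under R 4.3.3 with limma 3.58.1. All 14 libraries entered 1 quasi-likelihood fit with a mean per day, which left 7 residual degrees of freedom, and the common biological coefficient of variation was 0.045. The F tests are 2-sided, and p-values were adjusted by Benjamini-Hochberg over all 15712 genes tested. The SE was obtained from the F value and the log2 fold change, and understates the error where 1 day has few counts. Totals ran from 20515126 to 24746010 counts over the 14 libraries, and 3 counts are the floor. Replicates differed by more than sampling noise on each day (chi-square per degree of freedom 2.18 at day 8 and 4.58 at day 6), so none was treated as a copy. The scripts were tested on simulated data.

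The comparison and the 53 gene lists were chosen with earlier results of these data known, so counts on lists are descriptions, and no test over a list was run. Genes named are the 15 largest rises and 15 largest falls among genes with a symbol that passed the test, had a mean of 5 CPM or more on either day and did not overlap between days; up to 6 genes per list with the largest changes among those that passed; the 10 most abundant genes; and a set of genes always given, such as KRT5 and CSN2. Some genes that this rule names are not reported here. Alternatives were DESeq2 1.42.0, RLE scaling, library totals alone, other low-count filters, unrounded counts, days 6 and 8 alone, a replicate block and each library left out. The length-adjusted fit, a smooth trend of each library on log2 gene length entered as offsets, was added after seeing the data. GC content could not be checked.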

Additional observations from a re-analysis of the deposited data

How the results depend on the processing

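Over the alternatives, 1 of the main counts moved by over 1.5 times: 2600 genes rose with library totals alone (4021 as reported; 34.9% of calls, against 52.4%). DESeq2 gave 3510 rises and 3085 falls, and of the differences between steps it called 5758, against 7175. Leaving out 1 library at a time gave 3202 to 4300 rises, 2913 to 3850 falls, 339 to 382 rises and 655 to 803 falls of at least 2-fold, and 4855 to 7602 differences between steps, the lowest without day 6 replicate 1. A replicate block gave 3925 rises and 3579 falls. No pairing of the libraries by replicate number was detected: deviations of same-numbered libraries correlated at 0.0152 between days 6 and 8 and at -0.0962 to 0.0689 over all pairs of days. A small shared effect could be missed this way, and the labels name no pairing. Over 307 named genes tested and 24 settings, 267 genes kept their call throughout and 37 lost it at least once. In 108 of 7362 combinations a call was lost, in 4 one was gained, and 1 reversed: FLNA, a filamin, with a log2 fold change of -0.01 (adjusted p = 0.954), had 0.23 with the length adjustment (adjusted p = 0.00206). With library totals alone the medians of the hemidesmosome, Notch, endoplasmic reticulum folding, oxidative stress, ion transport, HOX and melanocyte lists turned negative, as the median of all genes did. With the length adjustment the skeletal muscle median turned to -0.06 and the TGF-beta median to 0.10. Depth limits milk protein and late envelope genes, which had from 0 to a few counts at day 6.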

Other observations

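Several genes among the falls were higher at day 6 than on the sampled days to either side of it. On days 0, 1, 2, 3, 4, 6 and 8 the day means of CENPF were 70.3, 160.5, 71.5, 102, 49.9, 109 and 46.9 CPM, those of CENPE 44.6, 78.9, 32.5, 54.9, 23.8, 51.9 and 20.51 CPM, those of NBEAL1 1.09, 19.9, 11.6, 11.5, 8.26, 26.9 and 5.43 CPM and those of REV3L 10.2, 62.0, 82.9, 81.1, 65.0, 118 and 33.5 CPM. In each of the 4 genes day 6 was above both day 4 and day 8. These genes were picked after their values were seen, and no test was run on the pattern. In the bin of the longest genes, the median deviation (log2) from each gene's mean was 0.22 and 0.15 in the day 6 libraries. It lay between -0.01 and 0.04 in the day 4 and day 8 libraries. The part of this length trend in the 4 genes was not tested.

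Among the 10 most abundant genes, those not given above changed little or were matrix genes. EEF1A1, a translation elongation factor, averaged 8964 ± 114 CPM at day 8, against 7507 ± 165 CPM at day 6 (SD, n = 2 each, log2 fold change 0.26), and the 76 ribosomal protein genes took 4.96% and 5.06% of the counts at day 8, against 3.82% and 4.13% at day 6. The tropomyosin genes TPM4 and TPM1 had log2 fold changes of 0.15 and -0.26, the non-muscle myosin gene MYH9 0.13, COL1A2 -0.24 and THBS1, thrombospondin 1, -0.66. The calls of TPM4 (adjusted p = 0.496) and MYH9 (0.781) were lost with library totals alone. KRT4, a keratin of internal stratified epithelia, averaged 4.06 ± 0.0375 CPM at day 8, against 3.14 ± 0.102 CPM at day 6 and did not pass the test (adjusted p = 0.297).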
